A study of Rattus norvegicus with 24 samples.

Results

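Nqo1, Nfe2l2, Hmox1 and Gclc are 4 genes of the oxidative stress response. They were taken by their Ensembl IDs, ENSRNOG00000012772 (Nqo1), ENSRNOG00000001548 (Nfe2l2), ENSRNOG00000014117 (Hmox1) and ENSRNOG00000006302 (Gclc), and are 4 of the 26404 gene IDs in each count table. All 4 passed the low-count filter, with 325 to 18417 counts in a library. Liver RNA was sequenced from 24 female Sprague-Dawley rats, an outbred stock, labelled 57 days old. By gavage every 4 days for 28 days, 3 rats per group received sesame oil alone (vehicle) or the dioxin TCDD. The doses were 0.01 and 0.03, then 0.1 and 0.3, then 1 and 3, and at the top 10 µg/kg, and livers were collected on day 28. The series calls the 3 rats of a group biological replicates. The question here is from which dose on, and by how much, each of the 4 transcripts differed from vehicle.

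TCDD is a chlorinated dioxin that binds the aryl hydrocarbon receptor, a transcription factor which then pairs with ARNT and binds dioxin response elements. Nfe2l2 encodes NRF2, the transcription factor that KEAP1 marks for degradation until oxidants or electrophiles block it. NRF2 pairs with small MAF proteins and binds antioxidant response elements. Nqo1 encodes NAD(P)H quinone dehydrogenase, which reduces quinones without releasing semiquinone radicals, and is known as a target of both factors. Gclc encodes the catalytic subunit of glutamate-cysteine ligase, the enzyme of the rate-limiting step of glutathione synthesis. Hmox1 encodes heme oxygenase, which opens heme to biliverdin, carbon monoxide and iron, and is a widely used marker of oxidative stress.

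The promoters of Nqo1, Nfe2l2 and Gclc are shown as the sequence around the start of each gene. No promoter window was found for Hmox1. Those shown are RefSeq windows on the GRCr8 assembly, matched by symbol. They span 250 bases before and 50 after the start, written 5′ to 3′ on the gene's strand. Capitals mark every match on either strand to GCGTG, the core of a dioxin response element, or TGACNNNGC, the core of an antioxidant response element. No capitals of the 2 motifs overlapped.
Nqo1, chr19:52220218-52220517, minus strand: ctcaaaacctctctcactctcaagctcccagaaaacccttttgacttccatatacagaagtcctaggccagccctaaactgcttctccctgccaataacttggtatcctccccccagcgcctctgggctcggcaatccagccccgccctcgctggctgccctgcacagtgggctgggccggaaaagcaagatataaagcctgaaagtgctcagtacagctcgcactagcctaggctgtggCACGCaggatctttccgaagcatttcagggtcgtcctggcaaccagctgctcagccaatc
Nfe2l2, chr3:81028950-81029249, minus strand: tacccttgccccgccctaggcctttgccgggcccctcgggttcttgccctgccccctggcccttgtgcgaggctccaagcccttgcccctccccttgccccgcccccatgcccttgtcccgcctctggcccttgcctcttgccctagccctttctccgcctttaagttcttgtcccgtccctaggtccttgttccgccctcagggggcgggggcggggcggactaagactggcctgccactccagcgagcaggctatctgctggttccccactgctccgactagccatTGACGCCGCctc
Gclc, chr8:87510226-87510525, plus strand: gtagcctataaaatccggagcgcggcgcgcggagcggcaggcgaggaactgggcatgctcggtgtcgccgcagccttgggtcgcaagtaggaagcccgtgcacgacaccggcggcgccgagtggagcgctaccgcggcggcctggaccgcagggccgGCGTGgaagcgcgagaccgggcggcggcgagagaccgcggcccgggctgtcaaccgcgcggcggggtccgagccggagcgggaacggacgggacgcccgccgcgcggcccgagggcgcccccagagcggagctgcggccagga
The Nqo1 window held 1 GCGTG, read on the opposite strand at bases 241 to 245, and the Gclc window held 1 at bases 158 to 162. The Nfe2l2 window held 1 TGACNNNGC at bases 289 to 297. Of 33469 promoter windows of the same length, 29.7% held GCGTG and 12.1% held TGACNNNGC, and the matches are given as a description of these letters only.

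Gene counts per library ranged from 11816273 to 15804887. Levels are given as CPM, a gene's count divided by the TMM-scaled total of its library, in the usual per-library units. They follow the amount of a transcript within 1 gene and are not compared between genes, since gene length was not taken into account. Whole liver was sequenced, so a change in the number of cells of a type and a change of RNA per cell cannot be told apart. The liver label and other cell types could not be checked against marker genes, because the sources used here pair no further IDs with names. The tables also hold a total of alignments with more than 1 position, which add to no gene. Their share of a table's total was 29.3% to 35.0% in the 10 µg/kg libraries and 21.0% to 25.8% in the other 21, and its part in the values at 10 µg/kg was not tested.

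Nqo1 rose at every dose from 0.3 µg/kg upward and was 20.3-fold higher at 10 µg/kg than in vehicle. Its level was 49.5, 35.1 and 78.7 CPM in vehicle. The 0.01 µg/kg libraries held 59.0, 70.0 and 65.3 CPM, those at 0.03 µg/kg 108, 81.6 and 87.6 CPM, and those at 0.1 µg/kg 110.1, 99.6 and 110.4 CPM. At 0.01 µg/kg the libraries lay within the vehicle range, and from 0.03 µg/kg on all libraries of each dose lay above it. The level was 173, 230 and 153 CPM at 0.3 µg/kg, and the 1 µg/kg libraries held 385, 410 and 358 CPM. It was 554, 802 and 362 CPM at 3 µg/kg, and the 10 µg/kg libraries held 1128, 1068 and 1123 CPM. The share of all genes with every library of a dose above every vehicle library was 6.2% for 0.03 µg/kg, 9.8% for 0.1 µg/kg, 10.7% for 0.3 as for 1 µg/kg, 14.9% for 3 µg/kg and 21.4% for 10 µg/kg. The 3 µg/kg libraries spread the widest of the TCDD groups relative to their mean (SD 38.6% of it), and the 10 µg/kg libraries the least (3.00%). The vehicle libraries varied by 40.8%, replicate 3 being the high one.

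The Nqo1 mean was 1106 ± 33.2 CPM at 10 µg/kg and 54.4 ± 22.2 CPM in vehicle (SD, n = 3 each; edgeR log2 fold change 4.35, SE 0.282, adjusted p = 1.06e-09). Only 76 of the 12496 genes tested had a larger fitted rise at this dose. At 3 µg/kg the mean was 573 ± 221 CPM (edgeR log2 fold change 3.40, SE 0.270, adjusted p = 5.53e-08), and 68 genes had a larger rise. At 1 µg/kg it was 384 ± 26.1 CPM (edgeR log2 fold change 2.82, SE 0.264, adjusted p = 1.10e-06), a rise exceeded by 49 genes. The mean at 0.3 µg/kg was 186 ± 39.8 CPM (edgeR log2 fold change 1.77, SE 0.255, adjusted p = 0.00129), with 118 genes above it. At 0.1 µg/kg the mean of 107 ± 6.16 CPM was not called (edgeR log2 fold change 0.97, SE 0.250, adjusted p = 0.0637). DESeq2 called Nqo1 at that dose with an adjusted p of 0.0116. So did edgeR without vehicle replicate 3, the highest vehicle library for Nqo1 (log2 fold change 1.34; adjusted p = 0.0129). The other edgeR settings tried did not call it. Without vehicle replicate 2, the lowest vehicle library, the log2 fold change was 0.76 (edgeR adjusted p = 0.284). The log2 fold change was 0.76 at 0.03 µg/kg (95% interval 0.24 to 1.28; edgeR adjusted p = 0.49) and 0.25 at 0.01 µg/kg (95% interval -0.27 to 0.77; edgeR adjusted p = 0.858). The call at 0.3 µg/kg was lost when only its 3 libraries and those of vehicle were fitted (edgeR adjusted p = 0.108).

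The mean of Nqo1 was higher at each dose than at the one below it, but only 10 against 3 µg/kg passed the test between neighbouring doses. That step was 1.93-fold (edgeR log2 fold change 0.95, SE 0.248, adjusted p = 0.0295), with all 10 µg/kg libraries above all 3 µg/kg libraries. Of all genes, 2.46% were called higher in this comparison, and 11.5% had groups apart in this way. The call was lost in 5 of the 6 fits that left out 1 of these libraries, namely without replicate 1 or 3 at 3 µg/kg (log2 fold change 0.93 and 0.70; adjusted p = 0.0795 and 0.118) and without replicate 1, 2 or 3 at 10 µg/kg (0.93, 0.97 and 0.94; adjusted p = 0.051, 0.0735 and 0.0969). It was also lost when only these doses were fitted (adjusted p = 0.0912). For 1 against 0.3 µg/kg the groups also did not overlap, and the log2 fold change was 1.05 (95% interval 0.53 to 1.57; edgeR adjusted p = 0.254). DESeq2 called this step (adjusted p = 0.0181), where it called 32 genes in all. The other edgeR settings tried did not call it, with adjusted p of 0.187 to 0.947. In the main fit edgeR called 0.056% of all genes higher for this step, and 5.62% had groups apart. The unadjusted edgeR p for Nqo1 was 0.000396 for 1 against 0.3 µg/kg and 0.000992 for 10 against 3 µg/kg. Only after adjustment over all genes did the top step have the lower value. The ranges were likewise apart for 0.3 against 0.1 µg/kg (log2 fold change 0.80) and for 0.03 against 0.01 µg/kg (0.51), and they overlapped for 3 against 1 µg/kg (0.58) and for 0.1 against 0.03 µg/kg (0.21). Groups were apart in this direction for 5.43% and 4.15% of all genes in the 0.3 and 0.03 µg/kg steps. None of these 4 passed the edgeR test, where 0.144% of all genes were called higher for 3 against 1 µg/kg, 0.008% for 0.1 against 0.03 µg/kg and 0% for the other pair of steps. Of the 12496 genes tested, 501, Nqo1 among them, had an unadjusted edgeR p under 0.05 in either direction for 0.3 against 0.1 µg/kg. For 0.03 against 0.01 µg/kg there were 406. Both counts are below a share of 0.05 of the genes, which this threshold would give if nothing differed. DESeq2 called 1 gene at each of these steps.

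**Figure D1:**
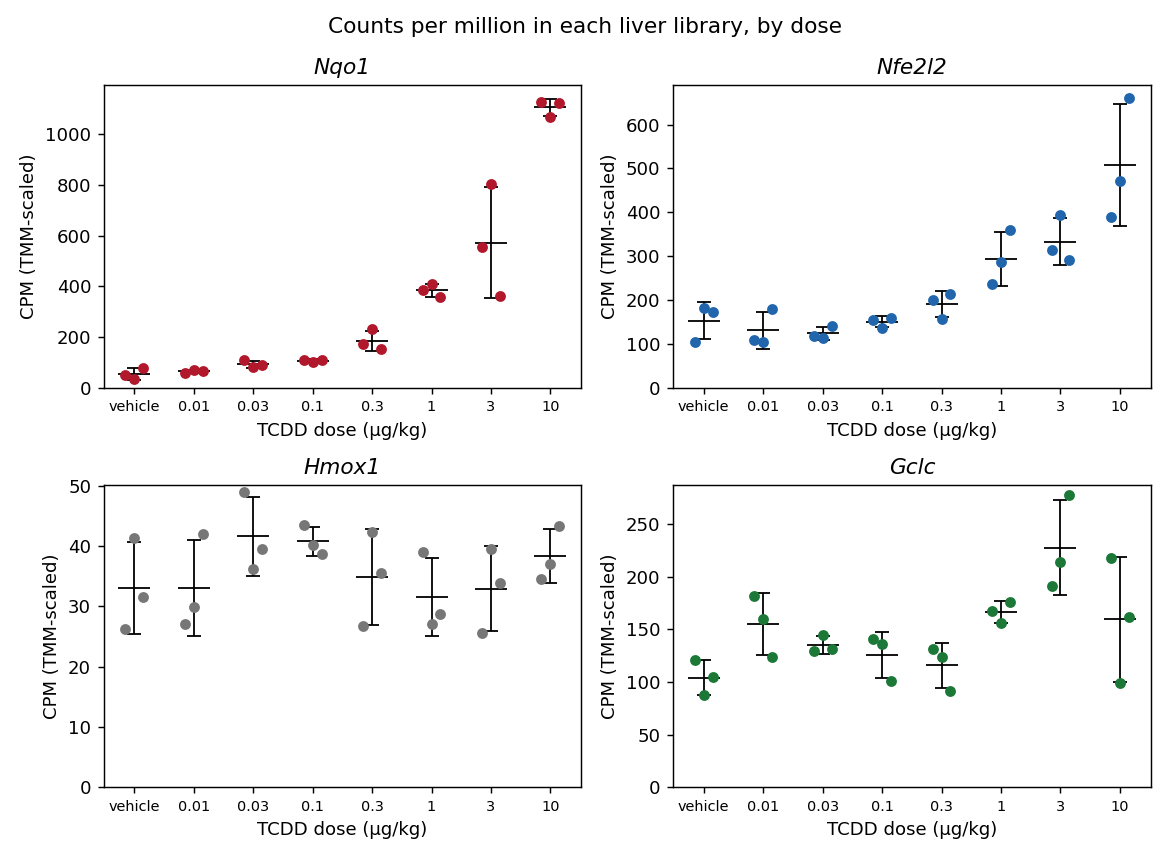
CPM (vertical axis, linear from 0, scaled by TMM) in each library, against the dose group in rising order (horizontal axis), for each of the 4 genes; points are libraries, the long dash is the mean and the bars are ± 1 SD (n = 3). Nqo1 climbs to 1106 CPM at 10 µg/kg, Nfe2l2 leaves the vehicle range from 1 µg/kg on, Gclc has its highest mean at 3 µg/kg and Hmox1 keeps overlapping vehicle.

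Nfe2l2 rose at 1, 3 and 10 µg/kg and was 3.32-fold higher at 10 µg/kg than in vehicle, with its first call at a higher dose than for Nqo1. The difference between these genes was not tested. The level of Nfe2l2 was 105, 182 and 172 CPM in vehicle, and the 0.01 µg/kg libraries held 109, 104 and 179 CPM. Those at 0.03 µg/kg held 117, 114 and 140 CPM, and those at 0.1 µg/kg 155, 136 and 159 CPM. All these libraries but 1 lay within the vehicle range, the exception being replicate 2 at 0.01 µg/kg, just under it. The level was 201, 156 and 214 CPM at 0.3 µg/kg, and the 1 µg/kg libraries held 237, 286 and 360 CPM. It was 314, 394 and 291 CPM at 3 µg/kg, and the 10 µg/kg libraries held 390, 471 and 662 CPM. From 1 µg/kg upward every library lay above every vehicle library, while the ranges of 3 and 1 µg/kg and of 10 and 3 µg/kg overlapped.

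At 10 µg/kg Nfe2l2 averaged 508 ± 140 CPM, against 153 ± 41.8 CPM in vehicle (SD, n = 3 each; edgeR log2 fold change 1.73, SE 0.244, adjusted p = 2.83e-05), and 490 genes had a larger fitted rise. At 3 µg/kg it averaged 333 ± 54.2 CPM (edgeR log2 fold change 1.12, SE 0.240, adjusted p = 0.00421). At 1 µg/kg the mean was 294 ± 61.9 CPM (edgeR log2 fold change 0.94, SE 0.240, adjusted p = 0.0417). The calls at 10 and 3 µg/kg held in each of the other settings tried. The call at 1 µg/kg was lost without vehicle replicate 1 or 2 (log2 fold change 0.73 and 1.09; adjusted p = 0.168 and 0.0744), without replicate 2 or 3 at 1 µg/kg (0.96 and 0.77; adjusted p = 0.131 and 0.182) and when no other group was fitted (0.95; adjusted p = 0.164). Below 1 µg/kg the log2 fold changes were -0.23 for the 0.01 µg/kg group, -0.31 for 0.03 µg/kg, -0.03 for 0.1 µg/kg and 0.32 for 0.3 µg/kg, with edgeR adjusted p-values of 0.569 to 0.985. Between neighbouring doses no step passed the test. The steps with the largest fitted changes were 1 against 0.3 µg/kg (log2 fold change 0.63, 95% interval 0.13 to 1.12; edgeR adjusted p = 0.762; groups apart) and 10 against 3 µg/kg (0.61, 95% interval 0.11 to 1.10; edgeR adjusted p = 0.143). For 1 against 0.3 µg/kg, 5.62% of all genes had groups apart in this direction.

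Gclc was called higher at 3 and 10 µg/kg, and its highest mean was at 3 µg/kg rather than at the top dose. Its level was 121, 87.3 and 104 CPM in vehicle, and the 0.01 µg/kg libraries held 182, 160 and 124 CPM. Those at 0.03 µg/kg held 129, 145 and 132 CPM, those at 0.1 µg/kg 141, 136 and 101 CPM, and those at 0.3 µg/kg 131, 124 and 92.0 CPM. The groups at 0.01 and 0.03 µg/kg lay above the vehicle range without passing the test, and those at 0.1 and 0.3 µg/kg overlapped it. At 0.03 µg/kg 6.2% of all genes lay above vehicle in this way. The level was 167, 156 and 176 CPM at 1 µg/kg. The 3 µg/kg libraries held 191, 214 and 278 CPM, and those at 10 µg/kg 218, 98.9 and 161 CPM. All libraries at 1 and 3 µg/kg lay above vehicle, as for 10.7% and 14.9% of all genes, while replicate 2 at 10 µg/kg lay inside the vehicle range.

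At 3 µg/kg Gclc averaged 228 ± 45.0 CPM, against 104 ± 16.7 CPM in vehicle (SD, n = 3 each), a 2.19-fold rise (edgeR log2 fold change 1.13, SE 0.228, adjusted p = 0.00269). At 10 µg/kg the mean was 160 ± 59.7 CPM, the widest relative spread of this gene (37.4%), and the rise passed the threshold narrowly (edgeR log2 fold change 0.61, SE 0.226, adjusted p = 0.0467). That call was lost without vehicle replicate 2 or 3 (log2 fold change 0.51 and 0.62; adjusted p = 0.174 and 0.0897), without replicate 1 or 3 at 10 µg/kg (0.32 and 0.61; adjusted p = 0.318 and 0.0972), with no low-count filter (0.62; adjusted p = 0.0513) and when no other group was fitted (0.63; adjusted p = 0.139). The difference of 10 from 3 µg/kg did not pass (log2 fold change -0.51, 95% interval -0.98 to -0.04; edgeR adjusted p = 0.194), except without replicate 1 at 10 µg/kg (-0.81; adjusted p = 0.0396). At 1 µg/kg the mean was 167 ± 10.3 CPM (log2 fold change 0.68, 95% interval 0.21 to 1.15; edgeR adjusted p = 0.114). At 0.01 µg/kg it was 155 ± 29.0 CPM (log2 fold change 0.58, 95% interval 0.11 to 1.05; edgeR adjusted p = 0.502), a higher mean than at 0.03, 0.1 or 0.3 µg/kg. Of all genes, 5.47% had all 0.01 µg/kg libraries above all vehicle libraries. Each of the steps 0.03 against 0.01, 0.1 against 0.03 and 0.3 against 0.1 µg/kg had a fitted log2 change below 0 (-0.20, -0.10 and -0.12), and none passed the test.

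Hmox1 did not pass the test at any dose, and its group means stayed between 31.6 and 41.6 CPM. At 10 µg/kg the libraries held 34.6, 37.0 and 43.2 CPM, and in vehicle 26.3, 41.2 and 31.6 CPM, so that the groups overlapped. The 0.01 µg/kg libraries held 27.0 to 42.0 CPM, those at 0.03 µg/kg 36.2 to 49.0 CPM and those at 0.1 µg/kg 38.7 to 43.4 CPM. The 0.3 µg/kg libraries held 26.7 to 42.4 CPM, those at 1 µg/kg 27.0 to 39.0 CPM and those at 3 µg/kg 25.5 to 39.5 CPM. Each of these ranges overlapped that of vehicle. At 10 µg/kg Hmox1 averaged 38.3 ± 4.46 CPM, against 33.1 ± 7.57 CPM in vehicle (SD, n = 3 each; edgeR log2 fold change 0.21, SE 0.211, adjusted p = 0.491). The 95% interval of that log2 fold change was -0.23 to 0.65, so a rise of the size seen for Nfe2l2 at this dose lay outside it and one of the size fitted for Gclc lay inside it. The highest mean, 41.6 ± 6.61 CPM, was at 0.03 µg/kg (log2 fold change 0.33, 95% interval -0.11 to 0.77; edgeR adjusted p = 0.75). At 3 and 1 µg/kg the log2 fold changes were -0.01 and -0.07.

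**Figure D2:**
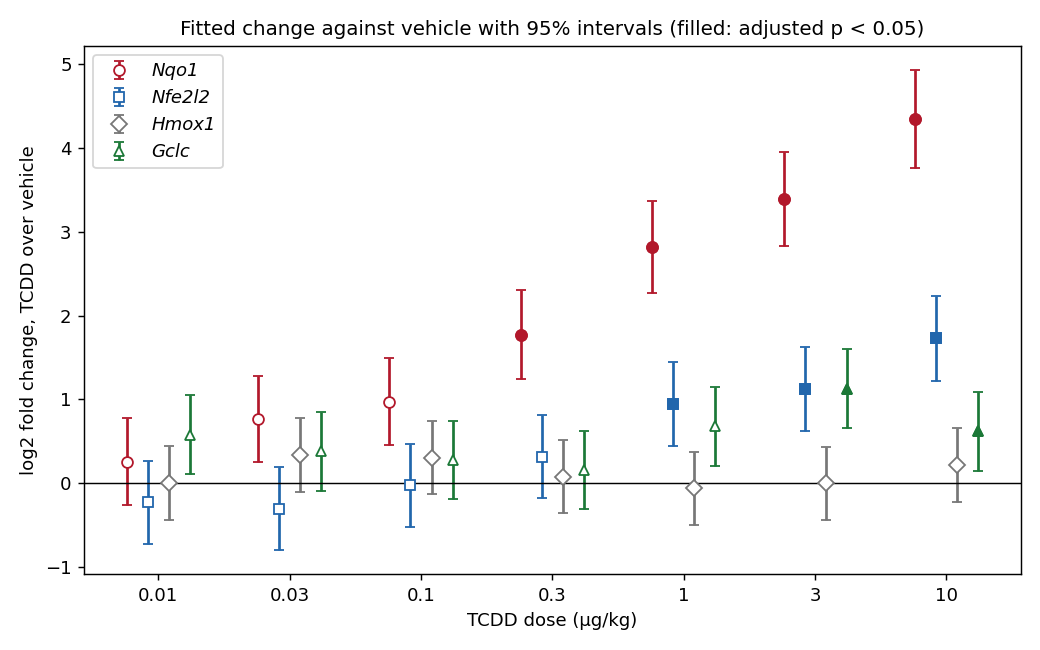
Fitted log2 fold change over vehicle (vertical axis) against TCDD dose in µg/kg (horizontal axis) for the 4 genes, with 95% intervals as bars; filled symbols have an edgeR adjusted p below 0.05. Nqo1 is filled from 0.3 µg/kg, Nfe2l2 from 1 µg/kg and Gclc from 3 µg/kg, and Hmox1 at no dose.

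Of the 4 genes, 3 were called higher at the top dose, where 14.7% of the 12496 genes tested were called higher. At 3 µg/kg 3 were called, against 7.94% of all genes. The 1 µg/kg dose gave 2 calls (1.70% of all genes), and the 0.3 µg/kg dose gave 1 (1.92%). None was called at 0.1 µg/kg (0.872%), 0.03 µg/kg (0.016%) or 0.01 µg/kg (0.008%). At an unadjusted edgeR p under 0.05 there was 1 of the 4 at each of these doses, Nqo1 at 0.1 and 0.03 µg/kg and Gclc at 0.01 µg/kg. Of the 12496 genes tested, 1636 were under that p in either direction at 0.1 µg/kg. The 0.03 µg/kg dose gave 932 such genes, and the 0.01 µg/kg dose gave 1036. Of the 4, DESeq2 called only Nqo1 at 0.1 µg/kg, where it called 313 genes in all. The median log2 fold change of the 4 was 1.17 for the 10 µg/kg group, 1.13 for 3 µg/kg and 0.81 for 1 µg/kg, beside -0.02, -0.01 and -0.01 over all genes tested. These comparisons share the 3 vehicle libraries, so that the doses are not independent of each other. The 4 genes were chosen with earlier results of these data known. Their counts and medians beside those of all genes are therefore a description and not a test.

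**Figure D3:**
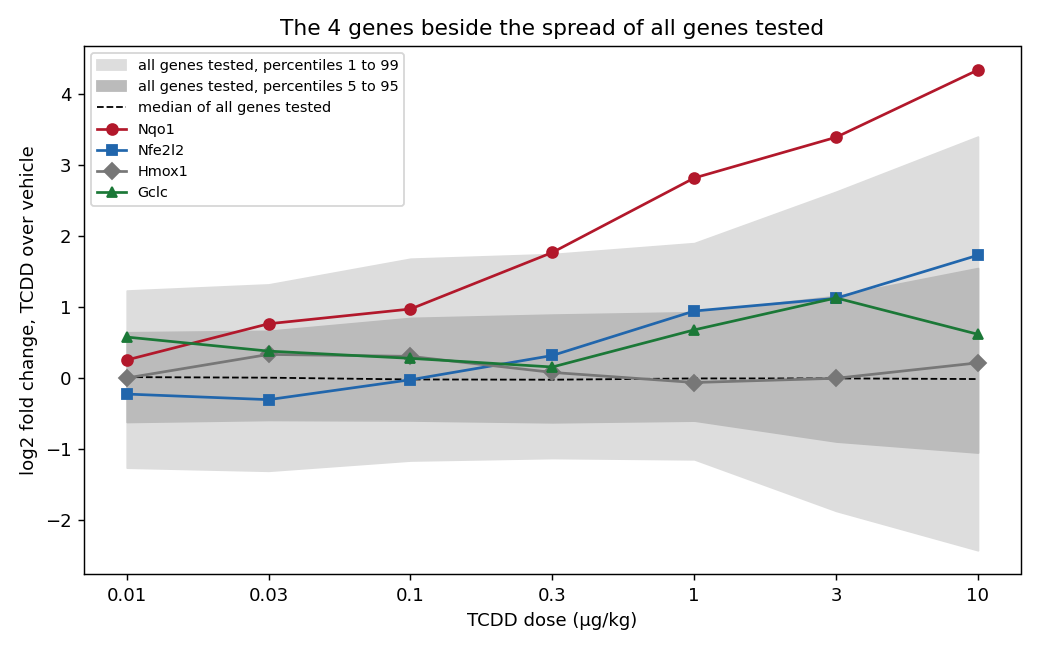
Fitted log2 fold change over vehicle (vertical axis) against TCDD dose in µg/kg (horizontal axis): lines for the 4 genes, grey bands for percentiles 1 to 99 and 5 to 95 of all 12496 genes tested, and a dashed line for their median. Nqo1 lies above the 99 percentile from 0.3 µg/kg on (that percentile is 1.75 at 0.3 µg/kg and 3.405 at 10 µg/kg), Nfe2l2 lies above the 95 percentile at 1 µg/kg (percentile 0.93) and at 10 µg/kg (percentile 1.55) but not at 3 µg/kg, and Hmox1 stays inside the inner band.

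Over all groups together, Nqo1 (edgeR F test adjusted p = 1.08e-10), Nfe2l2 (adjusted p = 5.00e-06) and Gclc (adjusted p = 0.0137) differed among the 8 groups, as did 21.0% of all genes. Hmox1 did not pass (adjusted p = 0.571). For Gclc the adjusted p was 0.0634 without replicate 3 at 3 µg/kg. A slope on the rank of the dose gave a log2 rise per dose step of 0.63 for Nqo1 (SE 0.0339; edgeR adjusted p = 2.65e-13), 0.27 for Nfe2l2 (SE 0.0321; adjusted p = 7.89e-07) and 0.10 for Gclc (SE 0.0307; adjusted p = 0.0179). Rising slopes were called for 17.8% of all genes. The slope of Hmox1 was close to 0 (95% interval -0.05 to 0.05; adjusted p = 0.997).

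Group means were also set against the 10 µg/kg mean of the same gene. Nqo1 stood at 16.8% of its 10 µg/kg mean in the 0.3 µg/kg group, 34.7% in the 1 µg/kg group and 51.8% in the 3 µg/kg group. Nfe2l2 stood at 37.5%, 57.9% and 65.6% of its own at these doses, having been at 30.1% in vehicle, against 4.92% for Nqo1. Gclc was at 104% of its 10 µg/kg mean at 1 µg/kg and at 143% at 3 µg/kg, having been at 65.3% in vehicle and 97.3% at 0.01 µg/kg. These percentages include the vehicle level and are not shares of the rise over vehicle.

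Likeness of dose profiles was measured as the root-mean-square difference of the 7 log2 fold changes over vehicle, which all rest on the same vehicle libraries. Among the 4 genes, Hmox1 and Gclc (0.579) and Nfe2l2 and Gclc (0.604) were nearest to each other, and Nqo1 and Hmox1 farthest (2.41). Of all genes tested, 3 lay within 0.5 of Nqo1, 431 within 0.5 of Nfe2l2, 2430 of Gclc and 8457 of Hmox1. The 3 genes nearest to Nqo1 lay at 0.404, 0.453 and 0.495, with log2 fold changes of 4.26, 5.19 and 3.67 at 10 µg/kg. The gene nearest to Nfe2l2 was ENSRNOG00000019094 at 0.163 (log2 fold change 1.56 at 10 µg/kg; edgeR adjusted p = 1.83e-05). Of the 3 genes nearest to Gclc, only ENSRNOG00000020264, at 0.165, was called at 10 µg/kg (log2 fold change 0.82; edgeR adjusted p = 0.0122). The gene ranked nearest, also at 0.165, had a log2 fold change of 0.46 at this dose (edgeR adjusted p = 0.274). The other, at 0.172, had 0.66 (edgeR adjusted p = 0.244). Neither ID is paired with a name in the sources used here.

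**Figure D4:**
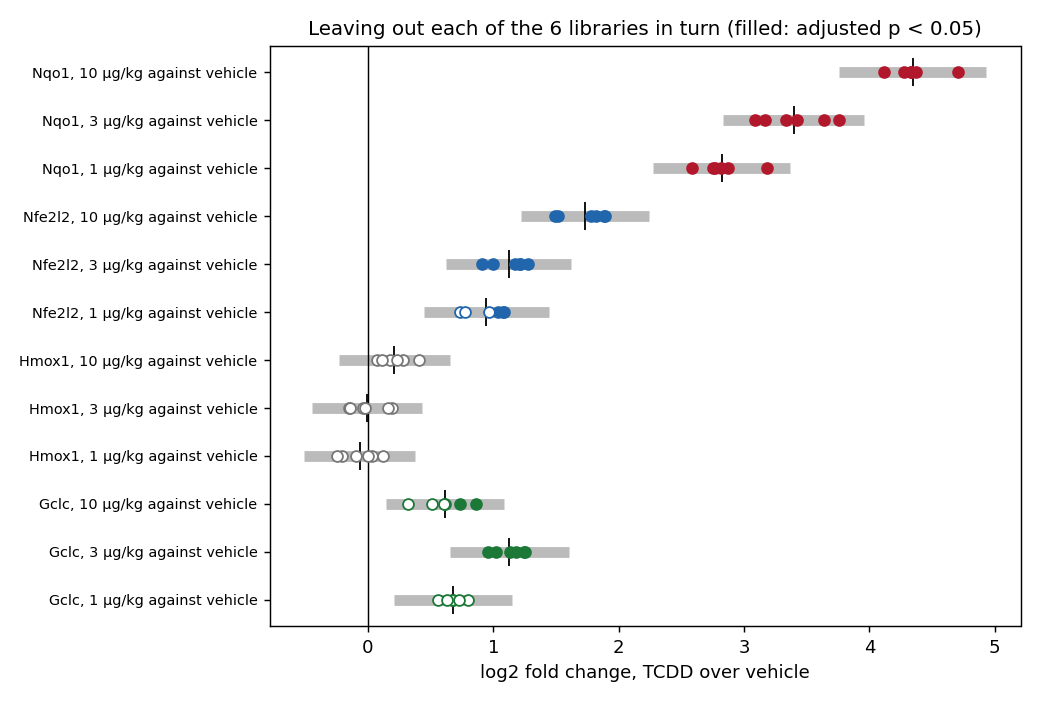
Fitted log2 fold change over vehicle (horizontal axis) for each gene at 10, 3 and 1 µg/kg (rows): the black tick is the value from all libraries, the grey bar its 95% interval, and each circle the value without 1 of the 6 libraries compared, filled where the adjusted p is below 0.05. All circles are filled for Nqo1, for Nfe2l2 at 10 and 3 µg/kg and for Gclc at 3 µg/kg, while Gclc at 10 µg/kg ranges from 0.32 to 0.87.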

How the data were processed

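Each deposited table gave raw counts for 1 library, by Ensembl gene ID. Per the submitters' processing notes, which state no order or settings, tools included TopHat 1.4.1 and HTSeq 0.6.1, with cutadapt 1.4.1, SAMtools 0.1.2, FastQC 0.11.2 and DESeq also named. Per the labels' protocols, libraries were made from TRIzol-extracted total RNA with an Illumina RNA kit. The sources used here do not give genome build, annotation release or strand setting, so reads of overlapping or antisense genes are uncertain for a single ID. The 5 HTSeq summary rows, 35.8% to 47.5% of a table's total, entered neither library sizes nor tests. Replicate pairs differed by more than sampling noise (chi-square 13.9 to 58.4 per degree of freedom).

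The names of the 4 IDs came with the rule that defines the set. Neither the tables nor the RefSeq gene table pairs Ensembl IDs with names (0 found), so the planned pathway and cell marker lists, given by symbol, were not applied. For genes of like profile, at most 2 IDs that rose were to be named, the nearest first. RefSeq promoters were matched by symbol for 3 of the 4 genes. The members and lists were chosen with earlier results of these data known.

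In R 4.3.3 with edgeR 4.0.16, filterByExpr kept 12496 of the 18198 IDs with a count. Library sizes were scaled by TMM (factors 0.898 to 1.11), and 1 quasi-likelihood model with a mean per group was fitted to all 24 libraries (16 residual degrees of freedom). Adjusted p-values (Benjamini-Hochberg) cover all genes tested, with calls below 0.05. The SE of a log2 fold change is its size over the root of F. Means are ± SD (n = 3). Alternatives were RLE scaling, DESeq2 1.42.0, both other low-count filters, a block for the replicate number, fitting just the compared pair of groups, a slope on log10 of dose + 0.01, and omission of each library in turn.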

Additional observations from a re-analysis of the deposited data

Results flagged for a closer look

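Alignments with more than 1 position, used in no comparison above, made up 32.0% ± 2.85 of a table's total at 10 µg/kg and 24.1% ± 0.797 in vehicle (SD, n = 3 each). The share lay above that of the control libraries, in data outside the gene counts, and the difference was not tested.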

How the results depend on the processing

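RLE scaling and a filter of 1 CPM in 3 libraries left all 60 results (each gene in 15 comparisons) with the same direction and call, and RLE moved the all-gene median of the log2 fold change over vehicle by -0.00687 to 0.00632. The replicate number as a block also changed no call (Nqo1 at 10 µg/kg, log2 fold change 4.34; Gclc, 0.60). In no comparison of 2 groups did libraries of the same number deviate together (correlation across genes above 0.1) for all 3 numbers. Each correlated best with its own number only for 0.03 against 0.01 µg/kg. The correlations were 0.362, 0.169 and 0.091 for 10 µg/kg against vehicle, and -0.245, -0.231 and 0.079 for 3 against 1 µg/kg. Among all genes, the block raised the calls from 661 to 934 for 10 against 3 µg/kg and from 2625 to 3040 among all groups. Whether the replicate number marks something shared between groups was not tested.

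Calls were lost in a fit of the 2 groups alone for Nqo1 at 0.3 µg/kg (1.79) and for 10 against 3 µg/kg (0.97), for Nfe2l2 at 1 µg/kg (0.95) and for Gclc at 10 µg/kg (0.63), and with no low-count filter for Gclc at 10 µg/kg (0.62). DESeq2 added calls for Nqo1 at 0.1 µg/kg (0.97) and for 1 against 0.3 µg/kg (1.05). The slope of Hmox1 was -0.0063 on log10 of dose. Of these, a fit of 2 groups has fewer samples by construction; the cause of the other changes was not tested.

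Leaving out 1 library at a time changed the call for Nqo1 at 0.1 µg/kg (0.76 to 1.34) and for 10 against 3 µg/kg (0.70 to 1.27), for Nfe2l2 at 1 µg/kg (0.73 to 1.09), for Gclc at 10 µg/kg (0.32 to 0.87) and for 10 against 3 µg/kg (-0.81 to -0.26), and for Gclc among all groups (adjusted p = 0.00278 to 0.0634). It turned the sign of changes that were not called. For Nfe2l2 these were 0.1 µg/kg (-0.24 to 0.14) and 0.03 against 0.01 µg/kg (-0.20 to 0.22). For Gclc they were 0.3 against 0.1 µg/kg (-0.26 to 0.019) and 0.1 against 0.03 µg/kg (-0.19 to 0.035). For Hmox1 they were 3 µg/kg (-0.15 to 0.19), 1 µg/kg (-0.25 to 0.12), 0.3 µg/kg (-0.088 to 0.28) and 0.01 µg/kg (-0.21 to 0.18). They were also 3 against 1 µg/kg (-0.074 to 0.24), 1 against 0.3 µg/kg (-0.32 to 0.022), 0.1 against 0.03 µg/kg (-0.10 to 0.11) and the slope (-0.012 to 0.011). Over the alternatives, the edgeR and DESeq2 adjusted p ran from 5.43e-09 to 0.108 for Nqo1 at 0.3 µg/kg, 0.0116 to 0.284 for Nqo1 at 0.1 µg/kg, 0.00439 to 0.118 for Nqo1 at 10 against 3 µg/kg and 0.0181 to 0.947 at 1 against 0.3 µg/kg. It ran from 0.00693 to 0.182 for Nfe2l2 at 1 µg/kg, 0.00514 to 0.318 for Gclc at 10 µg/kg, 0.0396 to 0.59 for Gclc at 10 against 3 µg/kg and 0.000262 to 0.0634 for Gclc among all groups. With 3 libraries per group, the 95% intervals were 0.876 to 1.18 wide on the log2 scale, which limits what differences could be detected.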

Other observations

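Deviations of the libraries from their group means, in log2 CPM, were compared between the 4 genes over 24 libraries (6 pairs, permutation within groups, two-sided, 100000 resamples). Nfe2l2 and Gclc had the largest value, with Pearson's r = -0.445 (permutation p = 0.112; adjusted 0.551) and Spearman's rho = -0.511 (permutation p = 0.0435; adjusted 0.261). Without the 2 libraries farthest from the median of Nfe2l2, r was -0.448, and with the means of the replicate numbers removed it was -0.38. At 10 µg/kg the library with the highest Gclc (218 CPM) had the lowest Nfe2l2 (390 CPM). The library with the lowest Gclc at that dose (98.9 CPM) had the middle Nfe2l2 (471 CPM). At 1 µg/kg replicate 3 was the highest library for both Gclc (176 CPM) and Nfe2l2 (360 CPM). Nfe2l2 and Hmox1 had r = 0.362 (permutation p = 0.186; adjusted 0.551), and Hmox1 and Gclc r = -0.248 (permutation p = 0.275; adjusted 0.551). The pairs with Nqo1 had r of -0.0254 to 0.106. No pair passed the threshold after adjustment.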
